A study of Mus musculus with 48 samples.

Results

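Heterotrimeric G proteins carry the signal of a seven-helix receptor into the cell. A ligand-bound receptor loads the α subunit with GTP, the α subunit and the βγ pair separate and act on enzymes and channels, and RGS proteins end the signal by speeding the α subunit's GTP hydrolysis. GABA-B receptors, the metabotropic GABA receptors, work through the Gi/o class, whose α subunits lower cyclic AMP synthesis and whose βγ pairs act on potassium and calcium channels. The genes described here are the 52 gene symbols in the count tables that name an α subunit (16 symbols), a β subunit (5), a γ subunit (10) or a numbered RGS protein (21), out of 24421 symbols in all. They were taken by symbol, with no measured value used, and the same 52 symbols stood in all 6 tables.

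RNA sequencing was done on 48 samples labelled as mouse astrocytes from 3 brain regions. The developmental samples came from cortex (3 at P1, 3 at P7, 4 at P14), hippocampus (3 at each age) and olfactory bulb (3 at each age), where P is the postnatal day. Their labels give no genotype and no treatment. At P28 there were Gabbr1 control and Gabbr1 cKO (conditional knockout) samples: 4 and 4 from cortex, 2 and 4 from hippocampus, 3 and 3 from olfactory bulb. Gabbr1 encodes the GABA-binding subunit of the GABA-B receptor. All P28 samples of hippocampus and olfactory bulb and 3 of cortex (2 controls and 1 cKO) are labelled tamoxifen, the drug that switches on an inducible Cre recombinase. The labels of the other 5 cortical P28 samples name no treatment. The promoter that drives Cre is not given in the sources used here. No label ties samples to animals, so p-values measure the spread between these samples.

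Each region has 1 table for the developmental ages and 1 for P28, scaled separately, so tests were made within a table. The unit is the normalised read count, the number of reads of a gene divided by 1 factor per library. Library depth ran from 1773226 to 15008466 reads at P1 to P14 and from 1859933 to 6352384 reads at P28. The 52 genes held 0.269% to 0.688% of the reads of a library. At P28 Gabbr1 stood at 927 to 1930 in cortical controls and 89.8 to 211 in cortical cKO samples. In hippocampus it stood at 780 and 824 in the controls and 152 to 380 in the cKO samples, and in olfactory bulb at 184 to 318 and 63.6 to 99.5. The 12 astrocyte markers, among them Aldh1l1, Aqp4 and Slc1a3, were detected in every group. Between P1 and P14 their summed level went from a cortical median of 31127 to 527171, from a hippocampal median of 15253 to 476142, and in olfactory bulb from 6934 to 159474. Over the same span the summed level of 12 neuron markers went from 11063 to 2100, from 9302 to 2514 and from 20842 to 4990. Summed microglia markers went from 571 to 2879, from 136 to 738 and from 59 to 383, and summed oligodendrocyte markers from 355 to 21479, from 86.6 to 1843 and from 140 to 2010. These markers moved with age beside every developmental result below, and their part in those results was not tested. In bulk samples fewer cells of a type and less RNA per cell cannot be told apart.

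A gene was tested when its mean in the table was at least 10, and called when limma's adjusted p over all tested genes was under 0.05. Of the 52 genes, 37 were tested in the cortical developmental table, 37 in the hippocampal and 36 in that of the olfactory bulb, and 35, 35 and 36 at P28. In no table did these 14 members pass: the transducins Gnat1, Gnat2 and Gnat3, which serve sight and taste, Gna14, Gna15, Gnb3, Gng8, Gng13, Rgs1, Rgs11, Rgs13, Rgs14, Rgs18 and Rgs21. Gnat3 and Rgs21 had at most 3 reads in every library of the series and were not detectable at this depth.

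Between P1 and P14 the G protein genes changed in both directions in each region. In cortex 8 of 37 rose and 12 fell, where 24% and 40.3% of all tested genes rose and fell. In hippocampus 13 of 37 rose and 6 fell, against 21% and 28.5% of all tested genes. In olfactory bulb 17 of 36 rose and 10 fell, against 24.8% and 31.4%. The median log2 difference of the tested members was -0.02 for cortex, 0.48 for hippocampus and 0.58 for the bulb, beside -0.27, -0.29 and -0.24 for all tested genes. The cortical split depends on the scaling of the libraries. With TMM scaling, which moves the median of all cortical genes from -0.27 to 0.01, 16 members rose and 8 fell, and with quantile normalization 12 rose and 12 fell.

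In all, 6 members rose in all 3 regions: the α subunits Gna12, Gna13 and Gnao1, the γ subunit Gng12, and Rgs7 and Rgs20. The 4 that fell in all 3 were Gnai1, Gnai3, Gng2 and Gng3. Of the genes tested in every region 14% rose and 17.8% fell in all 3, so 6 and 4 of 36 members lie near the share of genes at large. TMM scaling added Gnai2, Gnas and Gng5 to the shared rises and took Gnai3 from the shared falls. Quantile normalization took Gnao1 from the shared rises and added Rgs10.

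**Figure D1:**
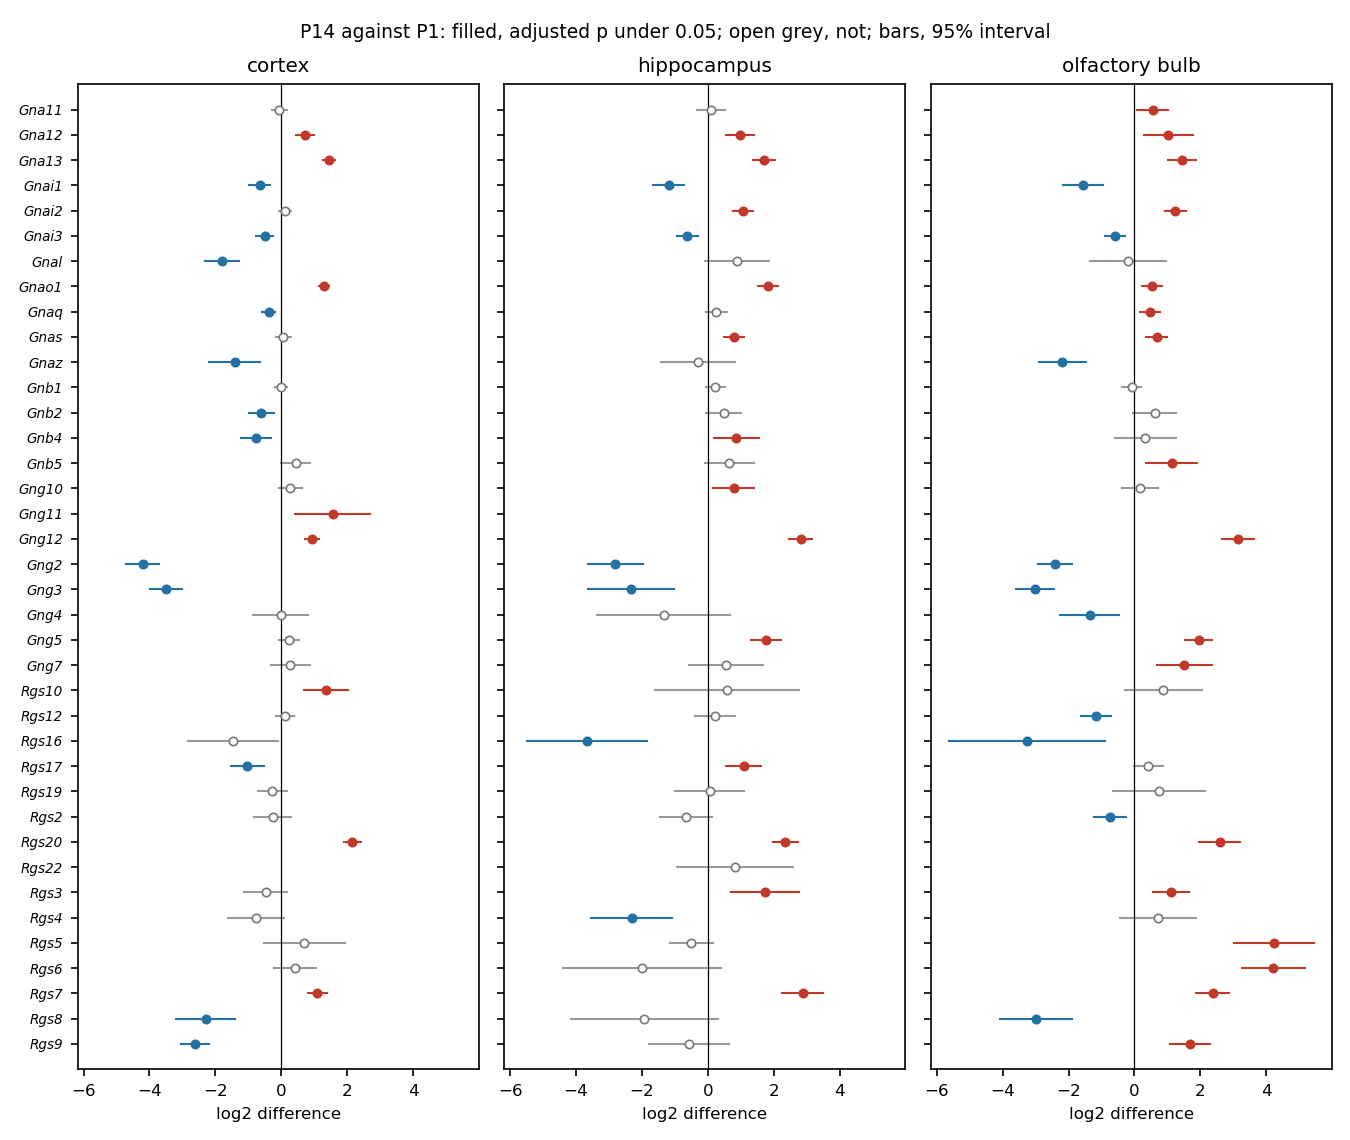
Change of each tested G protein and RGS gene between P1 and P14 in cortex, hippocampus and olfactory bulb, as the log2 difference (x axis) with its 95% interval; filled points passed an adjusted p of 0.05 and open points did not. Gng2 and Gng3 lie far to the left in all 3 panels, and Rgs5 and Rgs6 lie far to the right in the bulb only among the 3 regions.

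The Gi/o α subunits, the direct partners of the GABA-B receptor, did not move as 1 group. Gnao1, which encodes the abundant brain subunit αo, stood at 2315 to 2460 in the 3 cortical P1 libraries, at 2715 to 2760 at P7 and at 5695 to 6087 in the 4 P14 libraries. The ages do not overlap, and the log2 difference between P14 and P1 was 1.30 ± 0.07 (SE; adjusted p = 3.2e-09, limma). In hippocampus Gnao1 stood at 1045, 1150 and 1526 at P1, at 2144 to 2398 at P7 and at 3965, 4515 and 4572 at P14, a log2 difference of 1.83 ± 0.14 (adjusted p = 9.1e-07, limma). Here each age lay above the one before. In the bulb it stood at 1413, 1452 and 1726 at P1, at 1927, 1937 and 2508 at P7 and at 1976, 2257 and 2405 at P14. Those P7 and P14 libraries overlap, and the difference between P14 and P1 was 0.53 ± 0.14 (adjusted p = 0.0076, limma), or 0.16 with quantile normalization (adjusted p = 0.36).

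Gnai2, which encodes the widely expressed subunit αi2, stood at 1024, 1180 and 1257 in cortex at P1 and at 1209 to 1278 at P14. The cortical groups overlap, and the log2 difference of 0.12 ± 0.09 did not pass (adjusted p = 0.26, limma). It was 0.40 with TMM scaling (adjusted p = 0.0017) and -0.01 with quantile normalization (adjusted p = 0.93). In hippocampus Gnai2 stood at 418, 477 and 534 at P1 and at 970, 987 and 1048 at P14. The bulb libraries held Gnai2 at 282, 299 and 349 at P1, at 302 to 368 at P7 and at 659, 755 and 776 at P14. It rose in both, by a log2 difference of 1.08 ± 0.14 in hippocampus (adjusted p = 6.2e-05) and 1.24 ± 0.14 in the bulb (adjusted p = 3.5e-05), with most of the hippocampal rise before P7 and that of the bulb after it.

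Gnai1 and Gnai3, which encode αi1 and αi3, fell. Gnai1 stood at 327 to 346 in cortex at P1 and at 182 to 254 at P14 (log2 difference -0.66 ± 0.14, adjusted p = 0.0011). In hippocampus it went from 269, 298 and 331 to 107, 140 and 147 (-1.19 ± 0.21, adjusted p = 0.00073). In the bulb it was at 493, 502 and 623 at P1, at 751, 752 and 1342 at P7 and at 129, 174 and 261 at P14. The bulb was thus the 1 region in which P7 libraries lay above all P1 libraries for Gnai1, although that step did not pass its test, and the fall from P7 to P14 did (-2.33 ± 0.28, adjusted p = 7.0e-05, limma). Gnai3 stood at 620 to 631 in cortex at P1 and at 416, 417, 426 and 514 at P14 (-0.50 ± 0.12, adjusted p = 0.0025, limma; -0.22 and adjusted p = 0.13 with TMM scaling). It went from 734, 764 and 767 to 409, 486 and 584 in hippocampus and from 848, 882 and 888 to 482, 604 and 654 in the bulb.

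Gnaz encodes αz, the Gi relative that pertussis toxin leaves untouched. It stood at 88, 104 and 126 in cortex at P1 and at 19.2, 35.2, 52.7 and 61.3 at P14 (-1.42 ± 0.36, adjusted p = 0.0035, limma). It stood at 75.6, 76 and 79.3 in the bulb at P1 and at 12.4, 13.9 and 23.9 at P14 (-2.19 ± 0.33, adjusted p = 0.00019, limma). Both pairs of groups are apart. In hippocampus the P1 libraries (23.9, 25.2 and 57.9) and the P14 libraries (15.4, 21.5 and 54.8) overlap, and the difference was -0.30 with a 95% interval from -1.42 to 0.83.

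Divided by exon length, which makes levels of different genes comparable, the order within this class changed with age. In cortex at P1 Gnai2 led with 305 normalised counts per kilobase, before Gnao1 with 217 and Gnai3 with 192. At P14 Gnao1 led with 533, before Gnai2 with 330 and Gnai3 with 136. In the bulb Gnai3 led at P1 with 267, before Gnai1 with 172, Gnao1 with 138 and Gnai2 with 82. At P14 the first 3 there were Gnao1 with 200, Gnai2 with 193 and Gnai3 with 178, whose libraries overlap. Gnaz was lowest of the 5 in each region at P1 and at P14. Gnao1 has a joined exon length of 11053 bases over many isoforms, so its level per kilobase may be low. With the longest transcript as the length, an alternative chosen after seeing the data, the Gnai3 share of the α genes in cortex at P1 was 6.55% in place of 11.1% and that of Gnao1 14.8% in place of 12.5%, so the order of those 2 genes there depends on the length used. It does so in the bulb at P1 too, where with the longest transcript Gnao1 held 16.5% of the α genes, Gnai3 15.97%, Gnai1 10.2% and Gnai2 8.35%, so Gnai3 no longer led. At P14 in the bulb Gnao1 then held 17.8%, Gnai2 14.6% and Gnai3 7.85%.

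**Figure D2:**
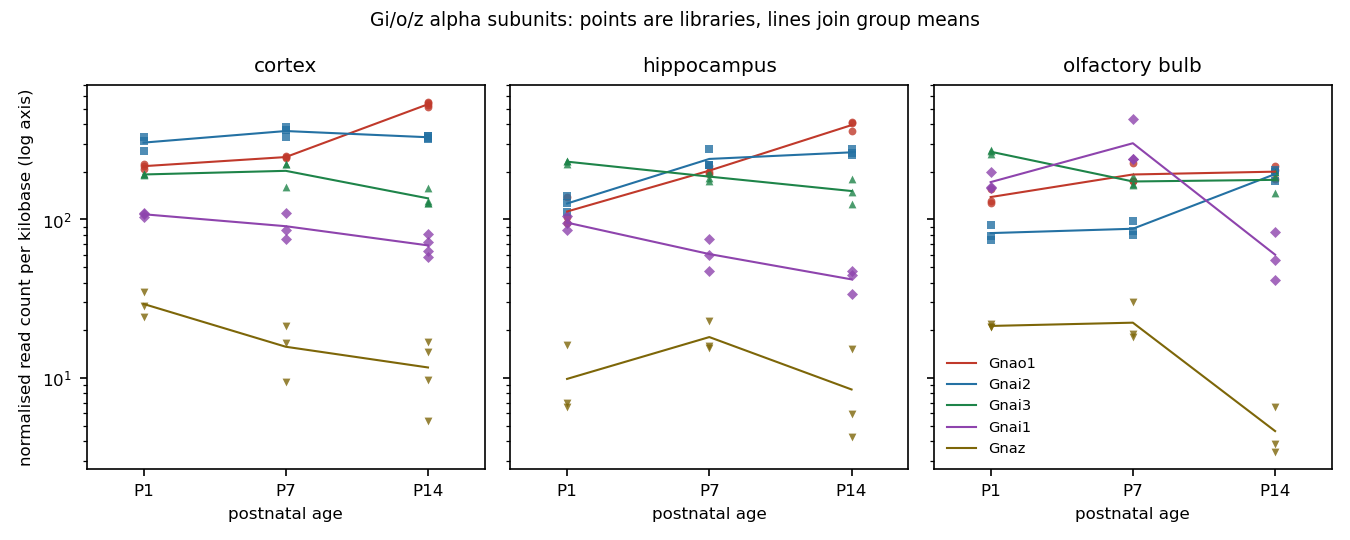
Normalised read counts per kilobase of exon (log axis) of the 5 Gi/o/z α genes that passed the filter, against age, in cortex, hippocampus and olfactory bulb; points are libraries and lines join group means. Gnao1 climbs from 217 to 533 in cortex while Gnai1 goes from 108 to 68.6, and in the bulb Gnai1 peaks at P7.

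The α subunits of the G12/13 class, which act on RhoA through guanine nucleotide exchange factors, rose in every region, 2 of 2. Gna13 stood at 543 to 632 in cortex at P1, at 1211 to 1357 at P7 and at 1552 to 1686 at P14. The log2 difference between P14 and P1 was 1.45 ± 0.08 in cortex (adjusted p = 5.4e-09), 1.69 ± 0.15 in hippocampus (adjusted p = 3.5e-06) and 1.45 ± 0.19 in the bulb (adjusted p = 8.9e-05, limma). The timing was not alike. In cortex 1.11 of the change came between P1 and P7, whereas in the bulb the P1 libraries (304 to 328) and the P7 libraries (218 to 373) overlap and the P14 libraries lay at 780 to 1006. Gna12 rose less, by 0.71 ± 0.13 in cortex, 0.97 ± 0.19 in hippocampus and 1.03 ± 0.33 in the bulb. About 13.3% of the Gna12 exon bases lie under exons of Amz1 of the opposite strand; whether the counting used strand is not given in the sources used here.

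Among the stimulatory subunits, Gnas, which encodes αs, the activator of adenylyl cyclase, rose in hippocampus (0.78 ± 0.14) and olfactory bulb (0.67 ± 0.14). With quantile normalization neither passed (0.07 and 0.20), and in cortex the sign turned with the scaling, from 0.07 to 0.35 with TMM and -0.60 with quantile normalization, the last 2 of which passed (adjusted p = 0.016 and 9.7e-05). Exons of Gnas overlap those of the antisense transcript Nespas by 8.83% and of Gm20721 by 13.1%. Gnal encodes αolf, known from olfactory neurons and striatum. It stood at 529, 601 and 740 in cortex at P1 and at 149 to 219 at P14, a fall of 1.80 ± 0.24 on the log2 scale. In the bulb, where P14 libraries ran from 31.7 to 151 around P1 values of 85.4 to 109, it did not pass. Of the Gq class, Gnaq fell in cortex (-0.38 ± 0.09; -0.10 with TMM scaling, which did not pass) and rose in the bulb (0.47 ± 0.14; 0.27 with quantile normalization, which did not pass). Gna11 rose in the bulb by 0.55 ± 0.21 (adjusted p = 0.043), a call that quantile normalization did not keep.

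The β subunits, which form a fixed pair with γ, changed least in make-up. Gnb1 held a mean of 80.4% to 88.8% of the reads per kilobase of the 5 β genes in every developmental group and 82.2% to 87.9% in every P28 group. Its P14 and P1 libraries overlapped in each region, with log2 differences of -0.01 for cortex (95% interval -0.20 to 0.17), 0.22 for hippocampus (-0.06 to 0.51) and -0.08 for the bulb (-0.36 to 0.20). Gnb2 and Gnb4 fell in cortex, by 0.61 and 0.76 on the log2 scale, and neither call held with TMM scaling. Gnb4 rose in hippocampus (0.87 ± 0.31) and Gnb5, the β subunit that pairs with RGS proteins of the R7 family, rose in the bulb (1.13 ± 0.36).

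The γ subunits, which anchor the βγ pair to the membrane through a lipid tail, showed the widest exchange. Gng2 stood at 1275, 1388 and 1779 in cortex at P1, at 373 to 721 at P7 and at 54.9 to 105 at P14. That is 18.4 times less at P14 than at P1, a log2 difference of -4.21 ± 0.23 (adjusted p = 4.8e-09, limma). In hippocampus it went from 1110 to 1162 at P1 to 91.4, 124 and 369 at P14 (-2.81 ± 0.38, adjusted p = 9.6e-05). In the bulb Gng2 went from 1627 to 1915 at P1 to 260, 368 and 372 at P14 (-2.40 ± 0.23, adjusted p = 8.5e-06). No P14 library reached any P1 library. Gng3, a γ gene known from neurons, fell as well. Its cortical libraries held 406, 412 and 553 at P1 and 29.6, 38.9, 40.5 and 50.9 at P14 (-3.49 ± 0.22). Those of the hippocampus held 84.4, 99.5 and 116, then 5.37, 33.1 and 35.5 (-2.33 ± 0.60), and those of the bulb 329, 363 and 395, then 30.3, 47.7 and 56.9 (-3.02 ± 0.26). Again no P14 library reached a P1 library. In Gng3, 24.2% of exon bases lie under exons of Bscl2 on the other strand, and in Gng2 20.4% under Gm48283.

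Gng12 went the other way. It stood at 1758, 2077 and 2264 in cortex at P1 and at 3497 to 4135 at P14, a log2 difference of 0.92 ± 0.10 (adjusted p = 2.8e-06, limma). In hippocampus it went from 473 to 533 at P1 through 1842 to 2574 at P7 to 2996, 3667 and 4179 at P14 (2.81 ± 0.16, adjusted p = 7.4e-08). In the bulb the P1 libraries held 112, 128 and 130, the P7 libraries 177 to 297 and the P14 libraries 832, 1191 and 1316, 9.02 times more than at P1 (3.14 ± 0.22, adjusted p = 9.5e-07). The cortex began with the highest level on its own table's scale and showed the smallest rise. Gng5, a broadly expressed γ gene, rose in hippocampus (1.76 ± 0.21) and olfactory bulb (1.94 ± 0.18). In cortex its difference of 0.24 did not pass, and it passed with TMM scaling (0.52, adjusted p = 0.0072). Gng4 stood at 243 to 465 in the bulb at P1, 491 to 1223 at P7 and 86.8 to 201 at P14, and at 6.14 to 47.4 in the other two regions at P1. It fell in the bulb between P1 and P14 (-1.36 ± 0.40, adjusted p = 0.014, limma).

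Gng12 lies on chromosome 6 from 66896397 to 67021361 and Gng2 on chromosome 14 from 19872558 to 19977825 (GRCm38.p6, RefSeq). The 250 bases before a RefSeq start of each are shown because these γ genes moved in opposite directions in all 3 regions. The windows are chr6:66896147-66896396 on the plus strand and chr14:19976694-19976943 on the minus strand, 5′ to 3′, and capitals mark matches to the Sp1 box GGGCGG, read on both strands (its reverse complement is CCGCCC).
Gng12: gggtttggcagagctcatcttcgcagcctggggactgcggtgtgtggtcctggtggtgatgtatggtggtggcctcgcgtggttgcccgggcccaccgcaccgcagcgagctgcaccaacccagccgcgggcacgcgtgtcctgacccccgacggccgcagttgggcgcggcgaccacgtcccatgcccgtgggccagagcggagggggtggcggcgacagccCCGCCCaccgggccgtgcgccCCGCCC
Gng2: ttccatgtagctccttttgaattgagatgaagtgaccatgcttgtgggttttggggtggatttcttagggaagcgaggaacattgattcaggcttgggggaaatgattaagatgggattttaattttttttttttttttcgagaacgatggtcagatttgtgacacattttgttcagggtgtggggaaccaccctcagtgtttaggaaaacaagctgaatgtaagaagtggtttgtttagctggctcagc
The Gng12 window ends just before that gene's RefSeq span. On the minus strand the Gng2 span begins at 19977825, so its window lies inside the gene, before an inner start. The bases before the outermost Gng2 start are not shown, so the windows do not stand at like starts. The Gng12 window has 28 CG pairs and 74.4% G and C, and that of Gng2 has 3 CG pairs and 41.2%, where the median over 32851 RefSeq promoter windows of 250 bases is 6 CG pairs. The Sp1 box stands in 32.7% of those windows and in 25 of the 52 windows of members (48.1%), shares that were not tested against each other. A second RefSeq start of Gng12, with its window at chr6:66896641-66896890, has no match to it. The cyclic AMP response element TGACGTCA, found in 1.55% of windows, the NFI palindrome, found in 0.0365%, and the REST half-site TTCAGCACC, found in 0.301%, stand in none of the 52 windows of the 39 members with an entry. A missing match says only that these letters are not in the window.

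Counted per kilobase within each library, Gng12 made up a mean of 31.4% of the γ genes in cortex at P1 and 63.8% at P14, and Gng2 24.3% and 1.44%. In hippocampus Gng12 went from 18.8% to 66% and Gng2 from 45.2% to 4.07%. In the bulb Gng12 went from 3.05% to 37.3% and Gng2 from 46.5% to 12.2%. These shares do not depend on the scaling between libraries, and the ranges over libraries of P1 and P14 do not overlap for either gene in any region. With the longest transcript in place of all exons, an alternative chosen after seeing the data, the Gng12 shares at P14 were 63.9%, 65.9% and 37.5%. At P28 the controls held a mean Gng12 share of 63.4% in cortex, 49.9% in hippocampus and 29.4% in the bulb, and the cKO samples 62.5%, 51.4% and 28.6%. The level of Gng10, a mean of 9.02% to 14.2% of the family at P1 and P14, is uncertain, because 72% of its exon bases are shared with Gm20503 on the same strand.

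**Figure D3:**
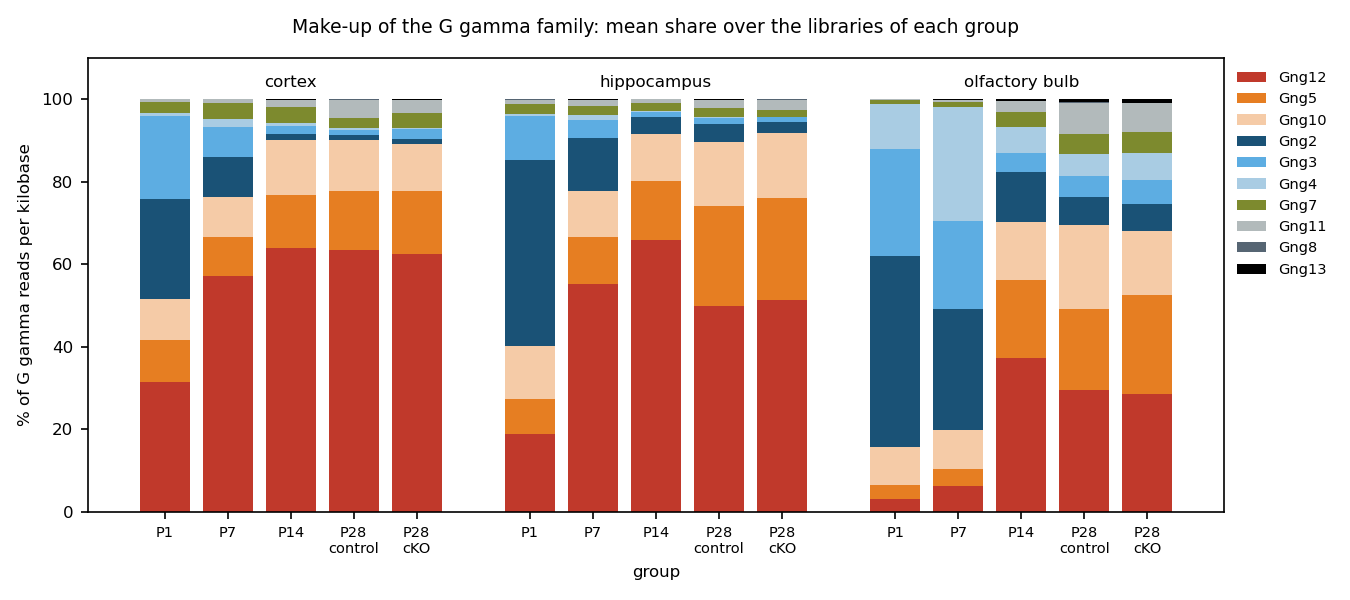
Mean share of each γ gene in the γ family's normalised counts per kilobase (y axis, %), by region, age and P28 genotype; each bar is 1 group of libraries. The Gng12 share grows and those of Gng2 and Gng3 shrink between P1 and P14 in every region, and the bulb keeps the lowest Gng12 share at P14 with 37.3%.

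RGS proteins fall into families by sequence, and the RZ family acts mainly on αz and αi. Its member Rgs20 led the RGS genes per kilobase in cortex and hippocampus at P14. It stood at 304, 382 and 462 in cortex at P1, at 660 to 719 at P7 and at 1594 to 1758 at P14, a log2 difference of 2.15 ± 0.12 (adjusted p = 4.0e-09, limma). In hippocampus it went from 206 to 240 at P1 to 935, 1261 and 1299 at P14 (2.35 ± 0.18, adjusted p = 7.6e-07). In the bulb it went from 50.2, 52.3 and 73.1 at P1 to 269, 315 and 513 at P14 (2.59 ± 0.28, adjusted p = 2.1e-05). Every P14 library lay above every P1 library. Per kilobase Rgs20 made up 24.1% of the RGS genes in cortex at P1 and 61.1% at P14, 28% and 63.7% in hippocampus, and 6.72% and 22.9% in the bulb, where the P14 libraries ran from 14.3% to 37.2%. Rgs17, also of the RZ family, fell in cortex (127 to 170 at P1, 56.4 to 81.4 at P14) and rose in hippocampus (69.9 to 98.6 at P1, 135 to 225 at P14). Rgs19, the third of the RZ family, passed in no region between P1 and P14.

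The R7 family, which needs Gnb5 for its stability and acts on αi and αo, had 3 tested members. Rgs7 rose in all 3 regions. It stood at 175, 230 and 234 in cortex at P1 and at 405 to 525 at P14 (1.09 ± 0.13, adjusted p = 8.9e-06, limma). Its hippocampal libraries held 16.5, 28.5 and 34.4 at P1 and 168, 199 and 211 at P14 (2.87 ± 0.29, adjusted p = 8.2e-06). Those of the bulb held 46.3, 48.9 and 49.8, then 212, 239 and 326 (2.37 ± 0.23, adjusted p = 8.5e-06). The P14 libraries lay above the P1 libraries in each region. Rgs9, known from striatum and photoreceptors, fell in cortex from 514, 573 and 660 to 75.5 to 142 (-2.61 ± 0.20, adjusted p = 9.0e-08). In the bulb Rgs9 rose from 41.2, 53.7 and 58.5 to 129, 160 and 214 (1.68 ± 0.27, adjusted p = 0.00036). Rgs6 rose in the bulb from 3.94, 3.96 and 12.1 to 112, 113 and 158 (4.21 ± 0.44, adjusted p = 1.5e-05) and did not pass in cortex (0.42 ± 0.29) or hippocampus (-2.00 ± 1.09).

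Members of the R4 family, small RGS proteins with little beside the RGS domain, moved by region. Rgs5, known from pericytes and other vascular mural cells, stood at 14.7, 20.3 and 23.7 in the bulb at P1, at 88.6 to 114 at P7 and at 119, 667 and 678 at P14 (4.23 ± 0.55, adjusted p = 7.2e-05, limma). The mural marker sum of the same P14 libraries was 336, 943 and 797, beside 71 to 109 at P1, and the endothelial sum 147, 809 and 1236, beside 22.5 to 27. In cortex 1 P14 library held 359 for Rgs5 and the other 3 held 71.1 to 81.8. That library also held the highest mural sum of its group (708 against 286 to 397) and the highest endothelial sum (687 against 93.1 to 168). In hippocampus Rgs5 peaked at P7 with 205 to 278, between 48.5 to 59.8 at P1 and 25.4 to 48.4 at P14, and the mural sums were highest at P7 as well, at 449 to 601. The 10 mural markers left out Rgs5, and their part in its levels was not tested.

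Among the rest of the R4 family, Rgs8 fell in the bulb from 220, 237 and 274 to 19.9, 20.8 and 63.4 (-2.98 ± 0.49, adjusted p = 0.00040, limma), and in cortex (35.7 to 96 at P1, 7.55 to 19.7 at P14). Rgs3 rose in hippocampus (20.3 to 33.1 at P1, 48.4 to 213 at P14) and olfactory bulb (60.7 to 64.3, then 94.4 to 172). Rgs4, a regulator of Gi and Gq signals in neurons, fell in hippocampus (8.60, 13.2 and 21.4 at P1, then 1.10, 1.79 and 3.22), a call that quantile normalization did not keep (-0.40). Those P14 libraries held only 3, 1 and 1 reads of Rgs4. Rgs2, which favours αq, fell in the bulb by 0.73 ± 0.22 and did not pass in cortex or hippocampus. The hippocampal difference was close in size, at -0.66 ± 0.36 (adjusted p = 0.15, limma). There the P14 libraries (29.8 to 59.1) lay below the P1 libraries (66.4 to 87.3). Rgs16 fell in hippocampus (43.6 to 56.6 at P1, 0 to 13.2 at P14) and olfactory bulb (67.3 to 91.6, then 0 to 52.4). These P14 libraries held few reads, 0, 12 and 2 in hippocampus and 5, 38 and 0 in the bulb. In cortex the Rgs16 difference of -1.46 did not pass (adjusted p = 0.056, limma). Of the R12 family, Rgs10 rose in cortex (17 to 33.9 at P1, 49.6 to 91.4 at P14), where all 11 microglia markers rose too and their part was not tested. Rgs12 fell in the bulb by 1.17 ± 0.20.

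**Figure D4:**
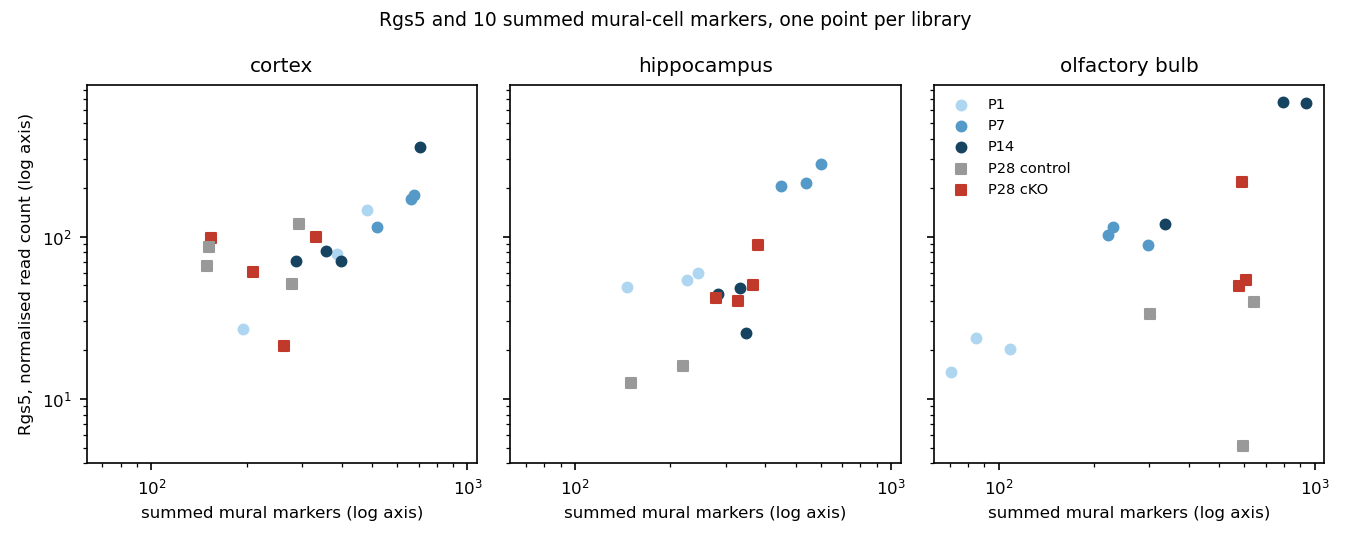
Rgs5 (y axis, normalised read count) against the sum of 10 mural-cell markers (x axis), 1 point per library, both on log axes, for cortex, hippocampus and olfactory bulb; circles are P1 to P14 and squares P28, scaled in separate tables. The highest Rgs5 values in each region (359 in cortex, 278 in hippocampus, 678 in the bulb) come from libraries with mural sums of 601 and above.

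Step by step, members rose and fell in both weeks, and the weeks were not tested against each other. In cortex the counts, of 37 tested members, lie near the shares of all genes in both steps. From P1 to P7, 6 cortical members rose and 7 fell (15.6% and 18.1% of all genes), 10 hippocampal members rose and 2 fell (11.2% and 6.92%), and 7 rose and 3 fell in the bulb (7.59% and 2.98%). From P7 to P14, 8 rose and 11 fell in cortex (18.6% and 31.3%), 9 and 6 in hippocampus (12.5% and 17.7%), and 13 and 9 in the bulb (20.4% and 26.6%). The splits depend on the scaling in cortex, where TMM gave 8 rises and 6 falls in the first step and 15 and 8 in the second, and in hippocampus, where quantile normalization gave 2 and 5 in the second. Members that rose in both steps were Gna13 and Rgs20 in cortex, Gna13, Gnao1, Gng5, Gng12 and Rgs20 in hippocampus, and Gng12, Rgs5, Rgs6 and Rgs7 in the bulb. With quantile normalization the second rise did not pass for Gna13 in cortex (0.05 in place of 0.34) or, in hippocampus, for Gna13 (0.33 in place of 0.75), Gnao1 (0.21 in place of 0.95) and Gng12 (0.12 in place of 0.78). Gng2 fell in both steps in each region, joined in cortex by Gng3 and Rgs9. A rise followed by a fall was seen for Gng4 in cortex, Rgs5 in hippocampus and Rgs4 in the bulb, where Rgs4 stood at 8.82 to 11.4 at P1, at 39.7 to 99.5 at P7 and at 7.95 to 30.5 at P14. The count of the first step in the bulb is not stable: leaving out 1 library gave 3 to 12 in place of 10, with 3 without P1 replicate 3, without P7 replicate 1 and without P7 replicate 2, 4 without P1 replicate 1 and 6 without P1 replicate 2. In hippocampus the second step gave 8 calls in place of 15 without P7 replicate 2, and in cortex 12 in place of 19 without P7 replicate 3.

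The change between P1 and P14 was compared between regions with 1 fit over the 3 tables, as the difference of the within-table changes. Between hippocampus and cortex 14 of 36 members differed, all with the larger value in hippocampus, where 14.2% of all genes differed in either direction. Between the bulb and cortex 16 differed, 13 with the larger value in the bulb (23.5% of all genes in either direction), and between the bulb and hippocampus 7 differed, 4 of them with the larger value in the bulb (18.2%). The shares of all genes in each direction are not given here, so the members' directions cannot be set beside those of genes at large. Scaling by TMM, which moves the median difference of all genes between hippocampus and cortex from 0.08 to -0.17, left 9 of the 14, and a stricter minimum mean of 50 left 4 of the 7.

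Gnao1 rose more in hippocampus than in the bulb, and more in cortex than in the bulb. The difference of the log2 changes was -1.29 ± 0.17 for bulb minus hippocampus (adjusted p = 3.9e-06) and -0.76 ± 0.16 for bulb minus cortex (adjusted p = 0.00094, limma). For hippocampus minus cortex it was 0.53 ± 0.16 (adjusted p = 0.030), a call lost with TMM scaling (0.27), with quantile normalization (0.31), with DESeq2 (0.40) and on leaving out any of 7 libraries. Gnai2 rose more than in cortex in both other regions, by 0.96 ± 0.17 in hippocampus (adjusted p = 0.00018) and 1.12 ± 0.17 in the bulb (adjusted p = 9.2e-06). Gng12 did so by 1.89 ± 0.23 and 2.21 ± 0.23. The extent to which Gnai3 fell did not differ detectably, with differences of -0.12 to 0.03 between regions.

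The widest differences of the bulb from the other regions were among RGS genes. Rgs9, which fell in cortex and rose in the bulb, differed by 4.29 ± 0.56 (adjusted p = 1.6e-06), Rgs6 by 3.79 ± 1.04 (adjusted p = 0.0083) and Rgs5 by 3.53 ± 0.78 (adjusted p = 0.0013, limma) between bulb and cortex. Between bulb and hippocampus Rgs6 differed by 6.22 ± 1.08 and Rgs5 by 4.73 ± 0.81. The size of the Rgs6 value leans on hippocampal P14 replicate 1, which held 0 reads of Rgs6 where replicates 2 and 3 held 29 and 19. With a pseudocount of 0.1 the Rgs6 difference between bulb and cortex did not pass (adjusted p = 0.079). Between hippocampus and cortex the 3 widest were Gnal (2.67 ± 0.63), Rgs3 (2.21 ± 0.52) and Rgs17 (2.13 ± 0.33).

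The partners and effectors of the G proteins were read from a list of 36 further genes in these tables, of which 26 were tested in each developmental table. It holds adenylyl cyclases, phospholipases C-β, G protein-gated potassium channels, receptor kinases and arrestins, GoLoco proteins, the α chaperone Ric8b and the R7 anchors. Of the 26, 8 rose and 13 fell in cortex between P1 and P14, 7 rose and 7 fell in hippocampus, and 7 rose and 6 fell in the bulb. Cortical genes as a whole rose in 24% and fell in 40.3% of cases, hippocampal genes in 21% and 28.5%, and those of the bulb in 24.8% and 31.4%. The list's counts in hippocampus and bulb lie near these shares. Adcy2, an adenylyl cyclase that βγ pairs activate together with αs, rose in all 3 regions. Its cortical mean was 75.1 at P1 and 770 at P14 (3.35 ± 0.15), its hippocampal mean 23.2 and 487 (4.43 ± 0.35), and that of the bulb 16.6 and 343 (4.28 ± 0.46). Rgs7bp, the membrane anchor of R7 proteins, rose by 1.63 ± 0.12, 2.43 ± 0.21 and 2.04 ± 0.32, and Arrb1, the arrestin that uncouples receptors, by 1.61 ± 0.08, 1.49 ± 0.15 and 1.55 ± 0.18. The potassium channel genes Kcnj3 and Kcnj6, targets of βγ, fell in cortex (-3.30 ± 0.51 and -3.58 ± 0.58), Kcnj3 fell in hippocampus (-2.95 ± 0.79) and Kcnj6 in the bulb (-3.86 ± 0.68). These 2 channel genes were chosen after their values were seen. Plcb4, a phospholipase C that αq activates, fell in cortex (-1.19 ± 0.20), hippocampus (-1.53 ± 0.29) and olfactory bulb (-1.63 ± 0.22). Adcy1, a calcium-sensitive cyclase, fell in cortex (-1.69 ± 0.31). Ric8b fell in cortex (-0.47 ± 0.15) and in the bulb (-0.89 ± 0.27), the latter a call lost without P1 replicate 1 (adjusted p = 0.053).

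The P28 comparison asks whether loss of Gabbr1 goes with a change in the G proteins the receptor uses. No member passed limma's adjusted p of 0.05 in any region, 0 of 35 in cortex (0.00982% of all genes, 1 gene, passed), 0 of 35 in hippocampus (0% of all genes) and 0 of 36 in the bulb (0%). Gabbr1 itself, whose control and cKO groups did not overlap, was thus not called by limma in hippocampus or the bulb. The absence of calls there does not exclude a change of that size in a member. At an unadjusted p under 0.05 there were 0 members in cortex, 2 in hippocampus and 1 in the bulb. Genes at large under that p numbered 221, 296 and 349. They were 2.17% of 10188 tested cortical genes, 2.54% of 11639 hippocampal genes and 3.02% of 11539 bulb genes. The small member counts were not tested against these shares. edgeR and DESeq2 called no member either; of all genes edgeR called 1, 0 and 0 and DESeq2 1, 1 and 19. None of the 23 or 24 tested genes of the partner list passed in any region.

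The intervals say how large a change these libraries would still allow. For Gnao1 the cortical controls held 3204, 3458, 4432 and 4498 and the cKO samples 3561, 4316, 4538 and 4661. The cortical libraries labelled tamoxifen, of both genotypes, held 3204, 3458 and 3561, and all others held 4316 or more. Summed microglia markers were 848 to 2262 in the tamoxifen-labelled libraries and 189 to 288 in the others. Summed astrocyte markers were 155952 to 217641 and 245379 to 311359. The part of this make-up in the Gnao1 spread was not tested. The control and cKO groups overlap, and the log2 difference was 0.14 with a 95% interval from -0.25 to 0.53. In the bulb it was -0.10 (-0.84 to 0.65), with controls at 1769, 2016 and 4650 and cKO samples at 1972, 2554 and 2679. In hippocampus it was 0.69 (-0.50 to 1.88), with controls at 2246 and 3227 and cKO samples at 2428, 3044, 4622 and 10362. The highest hippocampal value came from cKO replicate 2, whose Rn45s (ribosomal RNA precursor) share was 0.594% where the table reaches 38%, and without it the difference was 0.27. The highest bulb value came from control replicate 2, with 0.476% Rn45s, and without it the difference turned to 0.33.

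Gnai2 differed by 0.14 in cortex (-0.46 to 0.73), 0.22 in hippocampus (-0.61 to 1.06) and -0.20 in the bulb (-0.85 to 0.46). Gnai1 differed by 0.33 (-0.26 to 0.91), 0.05 (-1.04 to 1.15) and -0.62 (-1.41 to 0.16). For Gnai3 the values were -0.37 (-0.80 to 0.06), -0.46 (-1.32 to 0.40) and -0.01 (-0.59 to 0.58), and for Gnaz -0.89 (-2.26 to 0.47), 0.36 (-1.02 to 1.74) and -0.09 (-1.36 to 1.19). Every one of these intervals holds 0. In the bulb the Gnai1 controls stood at 155, 182 and 264 and the cKO samples at 84.2, 129 and 185, which overlap.

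A few members had groups that did not overlap at P28. In cortex every cKO library lay below every control for Gnai3 (229, 285, 308 and 317 against 326, 334, 361 and 458) and above them for Gng3 (17.3 to 27.3 against 11 to 15.8). That is 1 member each way of 35, where 1.03% of all genes lay below and 0.864% above. The p of the Gnai3 difference was 0.084 unadjusted and its adjusted p rounds to 1 in limma's fit. In hippocampus Rgs5, Rgs17, Gnal and Gng11 lay above, 4 of 35 where 7.08% of all genes did, and none lay below, where 7.92% did. In the bulb Rgs5 and Gng5 lay above and Gnas below, where 5.3% and 4.71% of all genes did. These counts lie near the share of genes at large or rest on 1 to 4 genes.

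Rgs5 had the smallest unadjusted p in hippocampus and in the bulb. In hippocampus it stood at 12.5 and 16 in the controls and at 39.9, 41.9, 50.1 and 88.1 in the cKO samples (log2 difference 1.81, 95% interval 0.55 to 3.07; unadjusted p = 0.0099, adjusted p = 0.94, limma). The mural marker sum of the same libraries was 150 and 220 in the controls and 280 to 380 in the cKO samples, groups that do not overlap, and its part in the difference was not tested. In the bulb Rgs5 stood at 5.11, 33.3 and 39.7 in the controls and at 49.8, 53.6 and 217 in the cKO samples (2.05, 0.30 to 3.80; unadjusted p = 0.026, adjusted p = 0.88, limma). There the mural sums overlap (301 to 642 and 577 to 609). Without control replicate 2 the bulb difference was 1.18 and without cKO replicate 1 it was 1.37. In cortex Rgs5 went the other way, at -0.36 (-1.31 to 0.59), and the groups overlap.

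Other members among the 3 smallest unadjusted p of a region were low or unsteady. Not all of these p were small. In limma's fit they were 0.12 for Gna11 in the bulb, and 0.12 for Rgs19 and 0.16 for Rgs3 in cortex. Rgs17 stood at 13.3 and 21.4 in hippocampal controls and at 33.9, 50.3, 63.1 and 142 in cKO samples (1.83, 0.40 to 3.26), and Gnal at 18 and 26.7 against 31 to 70.8 (1.22, unadjusted p = 0.050). Gna11 in the bulb stood at 22.1, 138 and 231 in the controls and at 172 to 225 in the cKO samples. Its difference of 1.16 fell to 0.17 without control replicate 2, the library with 0.476% Rn45s. In cortex Rgs19 stood at 13.7, 18.6, 24.2 and 40.9 in the controls and at 3.37, 9.59, 13.6 and 22.1 in the cKO samples (-1.07, -2.44 to 0.30). Rgs3 stood at 7.40, 40.6, 40.8 and 63.1 against 44.8, 48.2, 54.5 and 61.4 (0.77, -0.35 to 1.88). The groups of both overlap.

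**Figure D5:**
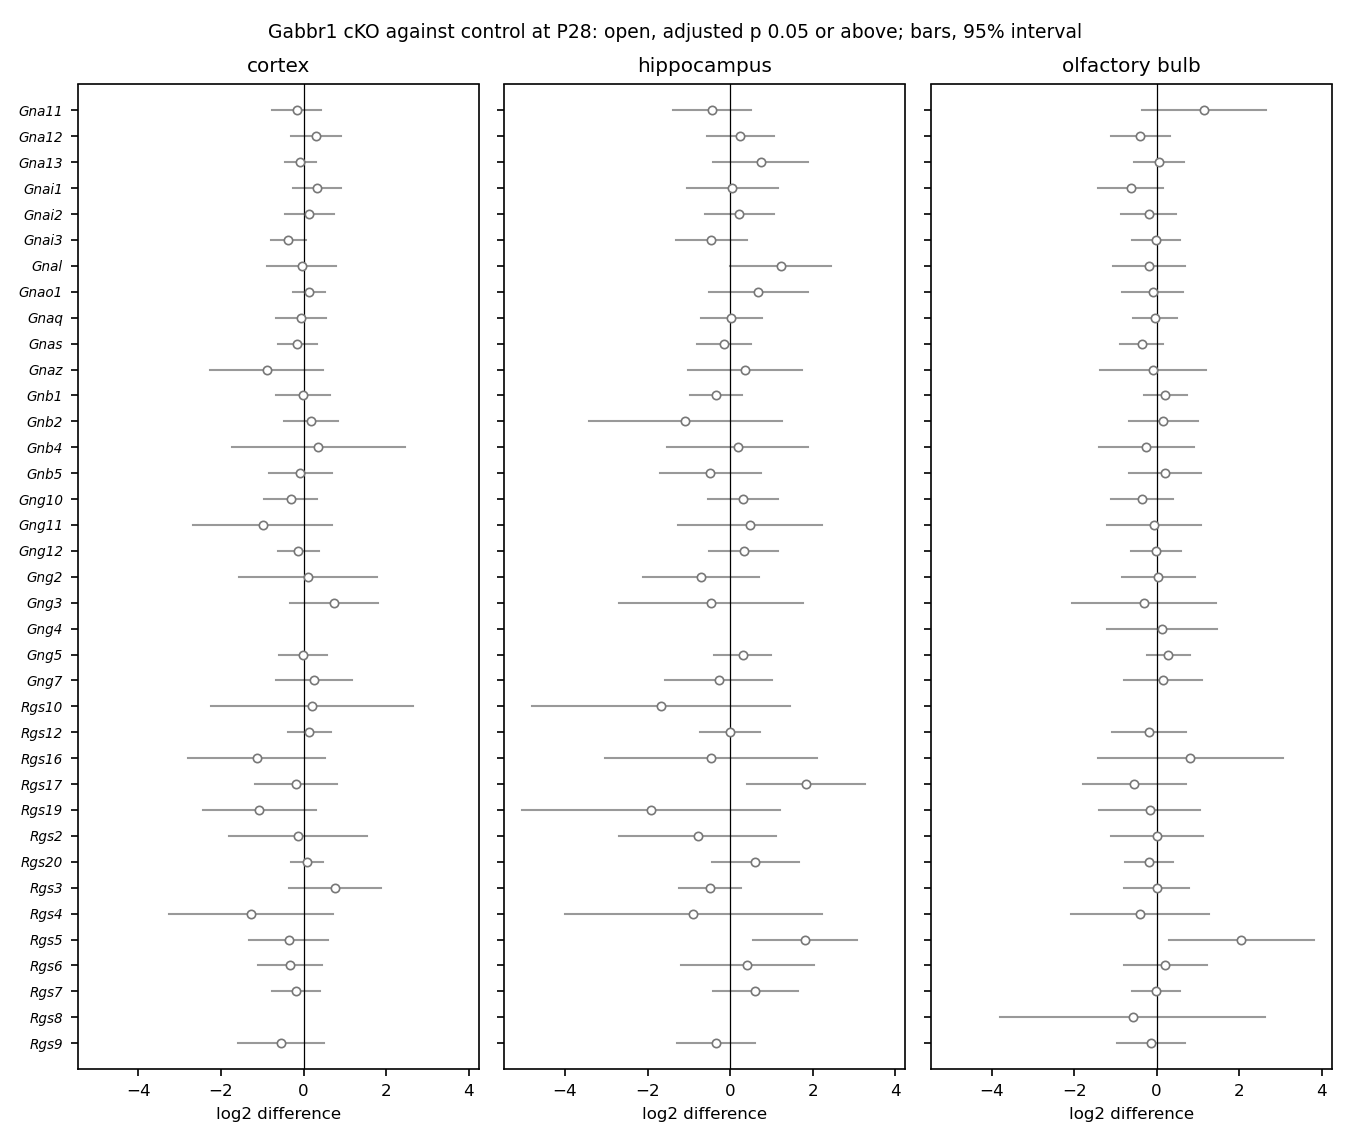
Difference between Gabbr1 cKO and control samples at P28 for each tested G protein and RGS gene, as log2 difference (x axis) with its 95% interval, in cortex, hippocampus and olfactory bulb. No point is filled because none passed an adjusted p of 0.05, and the intervals are wider in hippocampus (2 controls) than in cortex (4 controls) for Gnao1, which ran from -0.50 to 1.88 and from -0.25 to 0.53.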

How the data were processed

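Total RNA of dissociated tissue was made into Trio RNA-seq libraries, per the labels' protocols. STAR 2.5.0a, DESeq2 1.20.0 and the build mm10 are named in the submitters' processing notes, with no roles; annotation, counter and strand setting are not given in the sources used here. The authors deposited a signal, read counts divided by 1 factor per library, in 6 tables. Whole reads were recovered (100% of values within 0.01 reads), and 27 symbols turned into dates were restored by row order. Each table was fitted alone with limma 3.58.1 (R 4.3.3; trend, log2(value + 1), table mean at least 10, Benjamini-Hochberg over all genes); a fold on this scale understates low genes. Each fit was repeated with a pseudocount of 0.1 or 8, without the filter, with a minimum mean of 50, with TMM or quantile normalization, without the trend, with edgeR 4.0.16 and DESeq2 1.42.0 on the recovered reads, with 2 ages alone, without each library, without cortex P14 replicates 3 and 4, and with label style as covariate. Replicates are numbered in accession order. Shares per kilobase used GENCODE vM21 exons; promoters and positions are RefSeq's (GRCm38.p6, the same build as mm10), and 39 of 52 members had a promoter entry. The fits were tested on simulated data. Members, lists and tests were chosen with earlier results of these data known. Named were the 5 Gi/o/z genes, up to 4 called rises and falls per region (table mean 100, no overlap), the 3 smallest p at P28, the 3 widest region differences per pair, undetected members, and up to 3 partner genes each way; other members are given by group values.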

Additional observations from a re-analysis of the deposited data

Results flagged for a closer look

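Among the tested members, 142 sets of 4 libraries (1 member in 1 group) were examined with Dixon's test at the 95% level, which chance passes in about 1 of 20 sets. In 7 of them, a count near that rate, 1 value stood far from the others. Gnai3 stood at 514 in cortex P14 replicate 2 and at 416 to 426 in the others, and Rgs5 at 359 in cortex P14 replicate 3 and at 71.1 to 81.8 in the others. Rgs6 stood at 71.8 in cortical P28 cKO replicate 1 and at 44.0 to 48.0 in the others. Gnaz stood at 73.6 in cortical P28 control replicate 2 and at 21.4 to 26.4 in the others. Gnaz stood at 83.8 in hippocampal P28 cKO replicate 2, the library with 0.594% Rn45s, and at 25.2 to 32.7 in the others. In that library Gna13 stood at 3771, with 933 to 1259 in the others, and Gnb5 at 21.7, with 56.7 to 63.1.

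The change between P1 and P14 differed between regions for these genes, as the difference of log2 changes in limma's fit. For hippocampus minus cortex it was 0.96 for Gnai2, 0.53 for Gnao1, 2.67 for Gnal, 2.21 for Rgs3 and 2.13 for Rgs17. For olfactory bulb minus cortex it was -0.91 for Gnai1, 1.12 for Gnai2, -0.76 for Gnao1, 4.29 for Rgs9, 3.79 for Rgs6 and 3.53 for Rgs5. For olfactory bulb minus hippocampus it was -1.29 for Gnao1, -1.89 for Gnaz, 6.22 for Rgs6, 4.73 for Rgs5 and 3.03 for Rgs4. The Gnai1 call was lost without any 1 of 8 libraries and without the variance trend, the Gnaz call without any 1 of 8 libraries, and the Rgs4 call with quantile normalization (1.26). Hippocampal P14 libraries held only 3, 1 and 1 reads of Rgs4 and 0, 29 and 19 reads of Rgs6. Every bulb library at P14 held higher endothelial and mural marker sums than every one at P1, and their part in the Rgs5 difference was not tested.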

How the results depend on the processing

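No paired analysis was possible because the labels give no replicate numbers. Of 2131 recomputed values of single genes 2068 kept their direction and side of the threshold, and of 354 recomputed counts of members called 339 stayed within 1.5 times. Counts that moved were the following. Cortex P14 against P7 gave 19 called members, and 12 to 18 with 1 library left out. Hippocampus P7 against P1 gave 12, and 23 with only those 2 ages fitted. Hippocampus P14 against P7 gave 15, with 7 under quantile normalization, 9 without the trend and 8 to 17 with 1 library left out. Olfactory bulb P7 against P1 gave 10, with 6 without the trend, 16 in DESeq2, 21 with only those 2 ages and 3 to 12 with 1 library left out. The region differences gave 9 in place of 14 with TMM (hippocampus minus cortex) and 4 in place of 7 at a minimum mean of 50 (bulb minus hippocampus). Quantile normalization turned the sign of 2 called members, Gnb1 in cortex (0.23 to -0.061) and Gnas in hippocampus (0.60 to -0.033), both for P14 against P7, and neither then passed. In cortex some members passed with a rise under TMM and a fall under quantile normalization: for P14 against P1 Gnas (0.35 and -0.60) and Gnb1 (0.27 and -0.31), and for P14 against P7 Gnas (0.29 and -0.35) and Gng12 (0.27 and -0.35). Among the Gi/o/z genes the sign turned for values that did not pass as reported. For P14 against P1 these were Gnai2 in cortex (-0.010, quantile; 0.40 with TMM, which passed) and Gnaz in hippocampus (0.18, quantile; -0.81 to 0.10 with 1 library left out). At P28 in cortex it was Gnai2 (-0.094 with label style as covariate; -0.055 to 0.33 with 1 library left out). In hippocampus at P28 they were Gnai1 (-0.014, quantile; -0.33 to 0.34 with 1 library left out) and Gnaz (-0.010 to 0.55). In the bulb at P28 they were, over the libraries left out, Gnai2 (-0.44 to 0.038), Gnai3 (-0.23 to 0.17; 0.043 with TMM and 0.055 with quantile normalization), Gnao1 (-0.36 to 0.33; 0.024 with quantile normalization) and Gnaz (-0.55 to 0.49). Between regions it was Gnai3, at -0.25 to 0.0025 for hippocampus minus cortex, -0.19 to 0.032 for bulb minus cortex and -0.098 to 0.16 for bulb minus hippocampus with 1 library left out, the last at -0.0029 in DESeq2. The cause was not tested. Depth limits the low genes: 1 read was worth up to 1.99 normalised counts in the shallowest library.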
